A study of Mus musculus with 33 samples.

Results

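The genes described here are those whose 3′ UTR was crosslinked to the RNA-binding protein hnRNP R in mouse motoneurons and in the motoneuron-like line NSC34. A gene was included when it was annotated as protein-coding and held at least 10 sense cDNAs in its 3′ UTR, summed over 4 iCLIP libraries made with antibody 1 from unfractionated cells, which were motoneuron replicates 1 and 2 and NSC34 replicates 1 and 2. Of 36194 genes listed, 22439 were protein-coding, 7736 of these had at least 1 such cDNA, and 2340 met the rule, which is 10.4% of the protein-coding genes. Only the 3′ UTR counts and the RNA levels of these genes are described.

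In iCLIP, ultraviolet light links a protein to the RNA it touches, the protein is immunoprecipitated, and each cDNA made from the bound RNA stops at or near the crosslinked base. The count of cDNAs over a gene's 3′ UTR is thus a count of contacts that were recovered there, and it rises with the amount of that mRNA, the length of the UTR and the depth of the library as well as with binding. The 3′ UTR follows the coding sequence of a mature mRNA and carries many of the elements that set its stability, translation and transport, and in neurons the transport of mRNAs into axons and dendrites. hnRNP R is found in the nucleus and in the axons of motoneurons, where it is known for binding the β-actin mRNA, and it also binds the noncoding RNA 7SK, which holds the elongation kinase P-TEFb inactive.

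The series had 33 libraries. The 11 iCLIP libraries came from cultured wild-type CD-1 motoneurons and from NSC34 cells, a hybrid of neuroblastoma and spinal cord cells that is 1 cell line. There were 2 unfractionated libraries of each cell type with antibody 1, 1 nuclear and 1 cytoplasmic motoneuron library with antibody 1, 1 nuclear and 1 cytoplasmic NSC34 library with each of antibodies 1 and 2, and 1 NSC34 library with IgG, an antibody without a specific target. The 22 RNA-seq libraries came from primary CD-1 motoneurons grown in microfluidic chambers, with RNA taken separately from the axonal and the somatodendritic compartment. Both compartments had 4 control (GFP) libraries, 3 with hnRNP R knockdown and 4 with 7SK knockdown. The sources used here do not state how the knockdowns were made, and nothing in the labels says whether the replicates came from separate cultures.

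The libraries differed in depth. The 4 unfractionated libraries held between 99762 and 456721 cDNAs, the motoneuron nuclear and cytoplasmic libraries 91302 and 194816, and the NSC34 fractions between 2796 and 48398. The IgG library held 36280 cDNAs, so a gene at 0 there could still have a level of up to 82.7 CPM (cDNA counts-per-million of the library; 3 counts of the total, counting error only). Its file header names hnRNP R as the protein, and NSC34 replicate 2 carries the same library number, 14, so that only the title identifies it as IgG. Of 9 genes that mark motoneurons and were found in the RNA tables, Chat, Mnx1 and Isl2 were listed at 0 FPKM in the somatodendritic control of the authors' deposited table, and 3 of the 9 reached 1 FPKM. In the iCLIP counts 1 of these markers, Ngfr, met the 3′ UTR rule, with 1 cDNA in the motoneuron libraries and 12 in NSC34. The marker lists for microglia, fibroblasts and mural cells, oligodendrocytes and endothelium contributed 0 genes, the astrocyte and radial glia list 2 (Slc1a2 and Fabp7) and the list for other neurons 2 (Slc17a6 and Gad2).

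Together these genes held 75725 of the 93224 3′ UTR cDNAs that protein-coding genes had in the 4 libraries, or 81.2%. The sum per gene ran from 10 to 724 with a median of 20, and 104 genes had 100 or more. The rule cut through a dense part of the distribution. Exactly 10 cDNAs were counted for 157 genes, such as 1110012J17Rik, 1110057K04Rik and 2310022B05Rik, and 9 cDNAs for 177 genes that were left out, such as 1500003O03Rik, 2310028H24Rik and 2310044G17Rik. All 4 libraries had at least 1 cDNA in 1474 of the genes, while 83 genes had 0 in both motoneuron libraries and 145 had 0 in both NSC34 libraries.

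The 3′ UTRs were long. Their median length, as recovered from the deposited counts and densities, was 2477 bases, against 1133 bases for the 5396 protein-coding genes with 1 to 9 cDNAs, and the range was 22 bases (AC149589.2) to 23439 bases (Zbtb20, a zinc finger repressor). A longer UTR has more bases in which to gather 10 cDNAs, so the rule itself favours length. Across the 2340 genes the Spearman correlation of length with the cDNA sum was 0.289, a description over genes that share the same 4 libraries. Per kilobase of 3′ UTR, the median was 9.55 cDNAs. Leaving aside AC149589.2, with 10 cDNAs on 22 bases, the densest UTRs were those of Tuba1a, an α-tubulin of newborn neurons (277 cDNAs per kilobase over 191 bases), Mest, an imprinted gene (218 per kilobase over 275 bases), and Serinc1, a membrane protein linked to serine incorporation (216 per kilobase over 1373 bases). Tuba1a belongs to a family of near-identical tubulin genes, so its count is uncertain where reads could be split between copies. Mest, Zbtb20 and AC149589.2 were singled out after their values were seen.

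The contacts were spread over many bases. The median was 1.08 cDNAs per crosslinked position, and 9 of 2340 genes exceeded 1.5. The highest was H3f3a, which encodes the replication-independent histone H3.3, with 56 cDNAs at 26 positions (2.15 per position), and Hnrnpa1 followed with 17 cDNAs at 8 positions. Both genes have many processed copies in the genome, and their counts are uncertain for that reason. Antisense cDNAs over the same UTRs numbered 943 over the 4 libraries, and 1979 of the 2340 genes had 0. They can hold background as well as transcripts of the opposite strand, such as the one known over Ube3a, so they do not measure background alone.

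How much of a gene's own signal lay in its 3′ UTR differed widely. The median was 22.4% of the gene's cDNAs over the 4 libraries, and 454 genes had at least 50% there. Purb, a single-stranded nucleic acid binding protein that travels with transported mRNAs, had all of its 209 cDNAs in the UTR. Nefl, the light neurofilament subunit, had 94.9%. Among the lower shares were Ptprd, a receptor phosphatase of synapses, with 1.14% and Cadm2, a cell adhesion molecule, with 2.61%.

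The 25 genes with the largest sums covered cytoskeletal regulators, signalling enzymes, RNA-binding proteins and membrane proteins. Snhg11, a host gene of small nucleolar RNAs that the annotation used by the authors lists as protein-coding (mm9, chromosome 2, 158201373 to 158211880, plus strand), had the most. It held 253 cDNAs in motoneuron replicate 1, 470 in motoneuron replicate 2, 1 in NSC34 replicate 1 and 0 in NSC34 replicate 2. These counts lay in an annotated 3′ UTR of 5147 bases that took 97.3% of the gene's cDNAs, and nearly all came from motoneurons.

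Scd2, a stearoyl-CoA desaturase that makes monounsaturated fatty acids (mm9, chromosome 19, 44368163 to 44381349), showed the opposite lean. Its UTR held 48 and 39 cDNAs in the motoneuron libraries, 375 and 96 in the NSC34 libraries and 18 in IgG. As CPM of each library this was 134 and 122 in motoneurons, 821 and 962 in NSC34 and 496 in IgG. The IgG level was thus between those of the 2 cell types.

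Mtap2, now named Map2, encodes the dendritic microtubule-associated protein (mm9, chromosome 1, 66221841 to 66489156). It held 150 and 171 cDNAs in motoneurons, 13 and 1 in NSC34 and 0 in IgG. Dcx, the microtubule protein doublecortin of migrating and growing neurons (mm9, chromosome X, 140290384 to 140367853), held 145 and 185 in motoneurons and 0 in both NSC34 libraries and in IgG. Gria2, the AMPA receptor subunit that limits calcium entry, had the same pattern with 97 and 92 cDNAs against 0 and 0.

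Other leading UTRs were shared by both cell types. Mtpn, which encodes myotrophin, a regulator of actin capping, had 34 and 64 cDNAs in motoneurons and 170 and 29 in NSC34. Serinc1 had 46 and 80 against 136 and 35. For Dpysl3, a collapsin response mediator protein of the growth cone, the counts were 58 and 53 against 110 and 15. After scaling to library totals Dpysl3 stood almost level, with 45.6% of its scaled cDNAs in motoneurons, while Mtpn had 30.8% and Serinc1 36.9%.

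The RNA-binding proteins in this top group were Hnrnpu, a nuclear scaffold protein (39 and 22 cDNAs in motoneurons, 150 and 24 in NSC34), Caprin1, a protein of neuronal RNA granules (43 and 39, then 103 and 17), and Purb (38 and 29, then 122 and 20). All 3 had lower shares in motoneurons than in NSC34, between 23.8% and 37.9% of the scaled cDNAs. The calcium and phosphatase genes were Ppp1cb, a catalytic subunit of protein phosphatase 1 (35 and 39, then 167 and 43), and Slc8a1, a sodium-calcium exchanger (108 and 120, then 33 and 9). Slc8a1 had one of the longest UTRs of the set, 15584 bases.

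**Figure D1:**
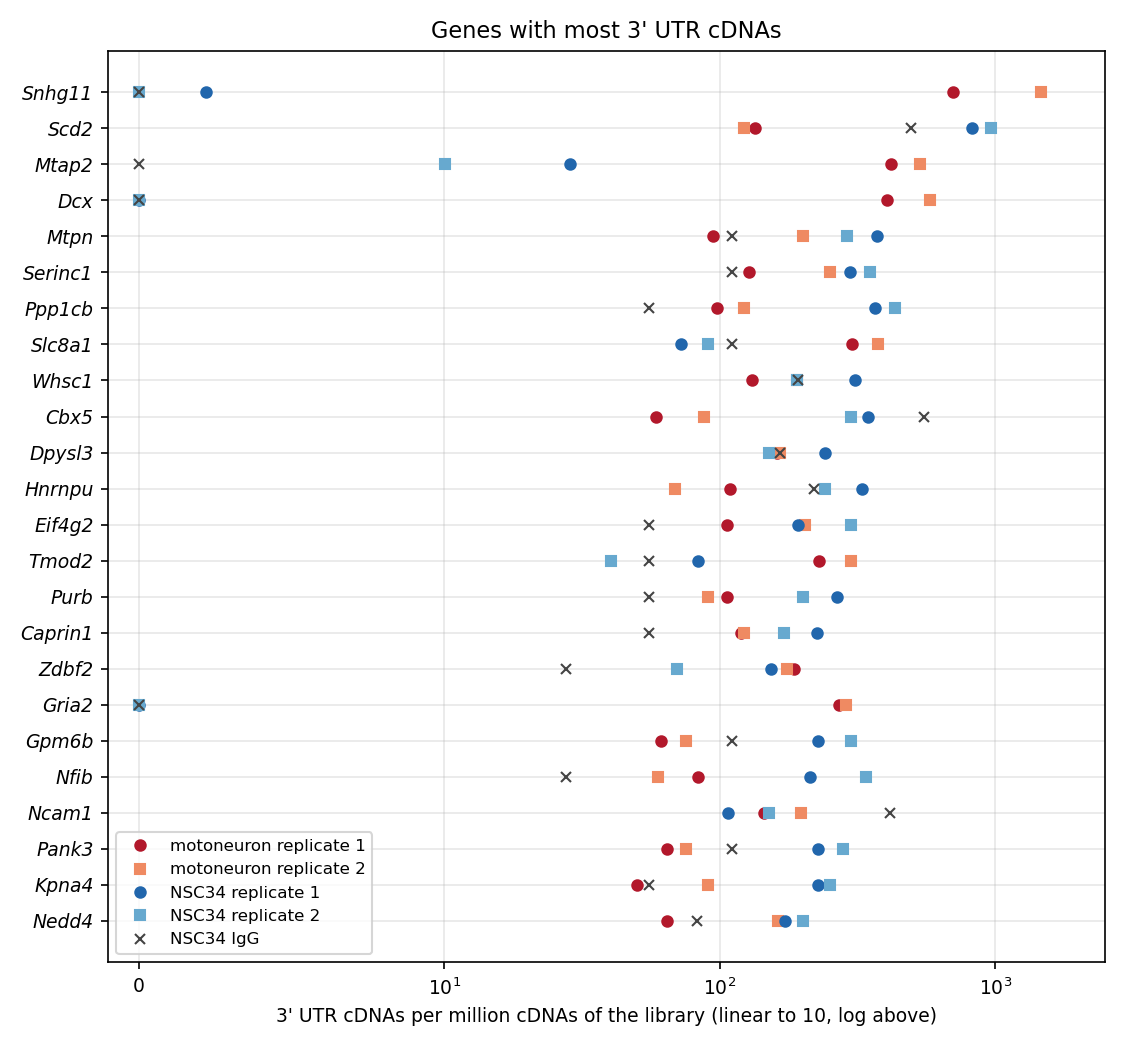
The genes with the most 3′ UTR cDNAs (rows, the top 25 with 1 not shown), with CPM of the library on the x axis (linear to 10, log above) and 1 point per unfractionated hnRNP R library and for IgG. Snhg11, Dcx and Gria2 have high points in both motoneuron libraries and lie at or near 0 in NSC34, whereas Scd2 is highest in NSC34.

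The 4 libraries of the rule are compared here as a description, without a test, since they chose the genes. Of the scaled cDNAs of a gene, the median share from motoneurons was 34.6%. More than 75% came from motoneurons in 333 genes, and less than 25% in 833 genes. Replicates of one cell type were alike and the cell types were not: over the 2340 genes, the Pearson correlation of log2(count + 1) was 0.73 between the motoneuron libraries, 0.71 between the NSC34 libraries, and 0.02 and 0.12 between same-numbered libraries of the 2 cell types. The requirement of 10 cDNAs in the sum lowers a correlation between cell types, because a gene that is low in one had to be high in the other.

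The UTRs most sided to motoneurons, among those with at least 50 cDNAs, all had 0 cDNAs in both NSC34 libraries. Besides Dcx and Gria2 they were Fut9, a fucosyltransferase that makes the Lewis X epitope (78 and 92 cDNAs in the motoneuron libraries), Cadm2 (48 and 75), Cugbp2, now Celf2, a neuronal splicing and stability factor (74 and 37), Gpm6a, a membrane glycoprotein of growing neurites (45 and 56), Negr1, an adhesion molecule of the IgLON family (68 and 25), Ptprd (28 and 35), Rgs17, a regulator of G protein signalling (26 and 32), and Dner, a neuronal Notch ligand (22 and 34). A count of 0 in the deeper NSC34 library, replicate 1, allows up to 6.57 CPM.

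At the NSC34 end, Samd5 (47 and 7 cDNAs in NSC34), Rnf149, a membrane ubiquitin ligase (41 and 19), and Baiap2l1, a regulator of actin bundles (50 and 10), had 0 in both motoneuron libraries. Cd164, a sialomucin (110 and 24 in NSC34, 0 and 1 in motoneurons), Ret, the receptor tyrosine kinase for GDNF ligands (76 and 18, then 1 and 3), Dusp6, a phosphatase that switches off ERK (53 and 13, then 2 and 1), and Scd1, another desaturase (43 and 10, then 1 and 0), were nearly as one-sided. The others of the 10 were Hjurp, a histone chaperone of centromeres, Kdelr2, a receptor that returns proteins to the endoplasmic reticulum, and Stom, a membrane scaffold.

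RNA level and 3′ UTR length also differed between these classes. The 333 genes sided to motoneurons had a median of 18.8 FPKM in the somatodendritic control of the authors' deposited table, the 1174 genes between 14.5 FPKM, and the 833 sided to NSC34 9.43 FPKM. In the axonal control of the authors' deposited table the medians were 7.49, 8.64 and 7.52 FPKM, without that order. Median 3′ UTR lengths were 3306, 2642.5 and 1949 bases. No RNA data of NSC34 cells were analysed here.

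**Figure D2:**
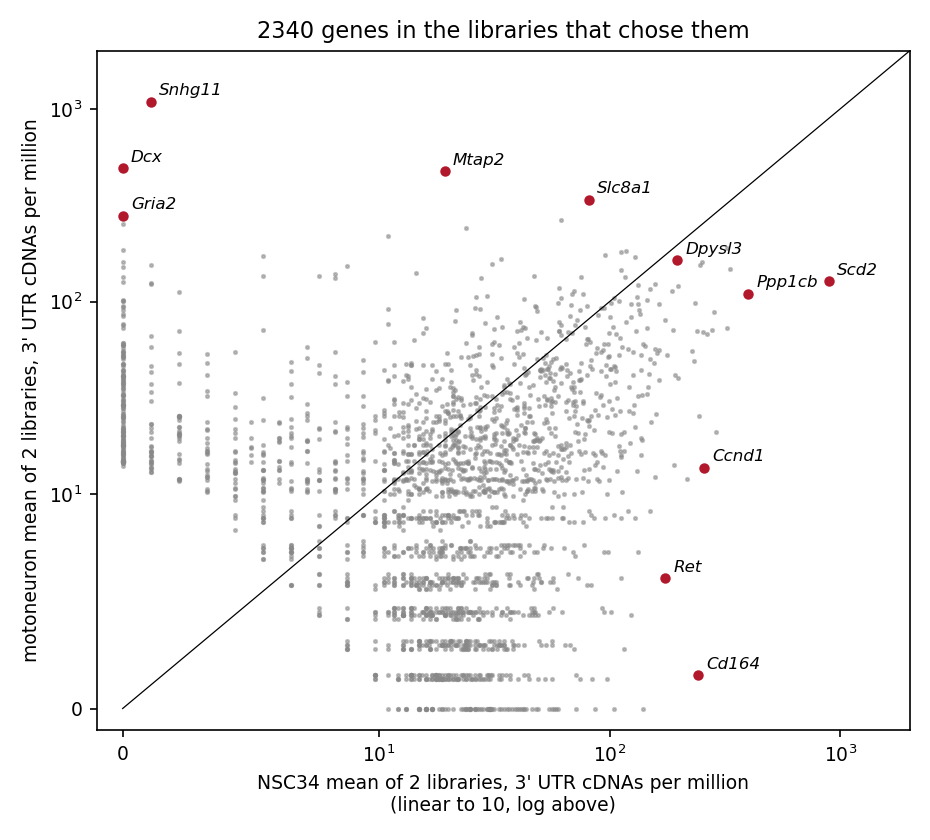
Each point is 1 of the 2340 genes, with the mean 3′ UTR CPM of the 2 NSC34 libraries on the x axis and of the 2 motoneuron libraries on the y axis (both linear to 10, log above), and the line marks equal levels. The empty lower left corner is set by the rule, and Snhg11, Dcx and Gria2 stand at the motoneuron edge while Cd164 and Ret stand at the NSC34 edge.

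The fractions were not used to choose the genes. Crosslinking in 3′ UTRs took a larger part of every cytoplasmic library than of its nuclear partner. In motoneurons 2.77% of the nuclear cDNAs (95% exact binomial interval 2.66 to 2.88) and 6.03% of the cytoplasmic cDNAs (5.93 to 6.14) lay in 3′ UTRs of protein-coding genes. In NSC34 with antibody 1 the values were 3.37% (3.22 to 3.54) and 19.1% (17.8 to 20.4), and with antibody 2 they were 3.94% (3.51 to 4.40) and 19.7% (18.2 to 21.2). Intervals cover counting error only.

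For the 2340 genes alone the cytoplasmic share was 2.40 times the nuclear share in motoneurons, 5.74 times in NSC34 with antibody 1 and 5.80 times with antibody 2. The mean log2 ratio was 2.11 ± 0.73 (SD, n = 3 pairs), and all 3 pairs had the same direction. An exact two-sided sign-flip permutation test gave p = 0.25, the smallest value that 3 pairs allow, so this design could not reach 0.05. The 3 pairs cover 2 cell types and 2 antibodies, and the files of a pair carry the same library identifier in their headers.

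The same direction was seen within the genes themselves. Of all cDNAs that fell on these 2340 genes, introns and coding parts included, the 3′ UTR held 5.32% in the motoneuron nucleus and 11.9% in the motoneuron cytoplasm. In NSC34 it held 6.00% and 48.97% with antibody 1, and 6.39% and 43.0% with antibody 2. The cytoplasmic to nuclear ratio of this share was 2.23 in motoneurons, 8.16 and 6.73. Unfractionated NSC34 cells lay between their fractions at 17.6% and 18.7%, and unfractionated motoneurons were at 10.9% and 13.7%, the second of them above the cytoplasmic value. The 2 NSC34 cytoplasmic libraries were the shallowest of the series, with 3569 and 2796 cDNAs, and only 331 and 255 of the 2340 genes had a cDNA there.

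**Figure D3:**
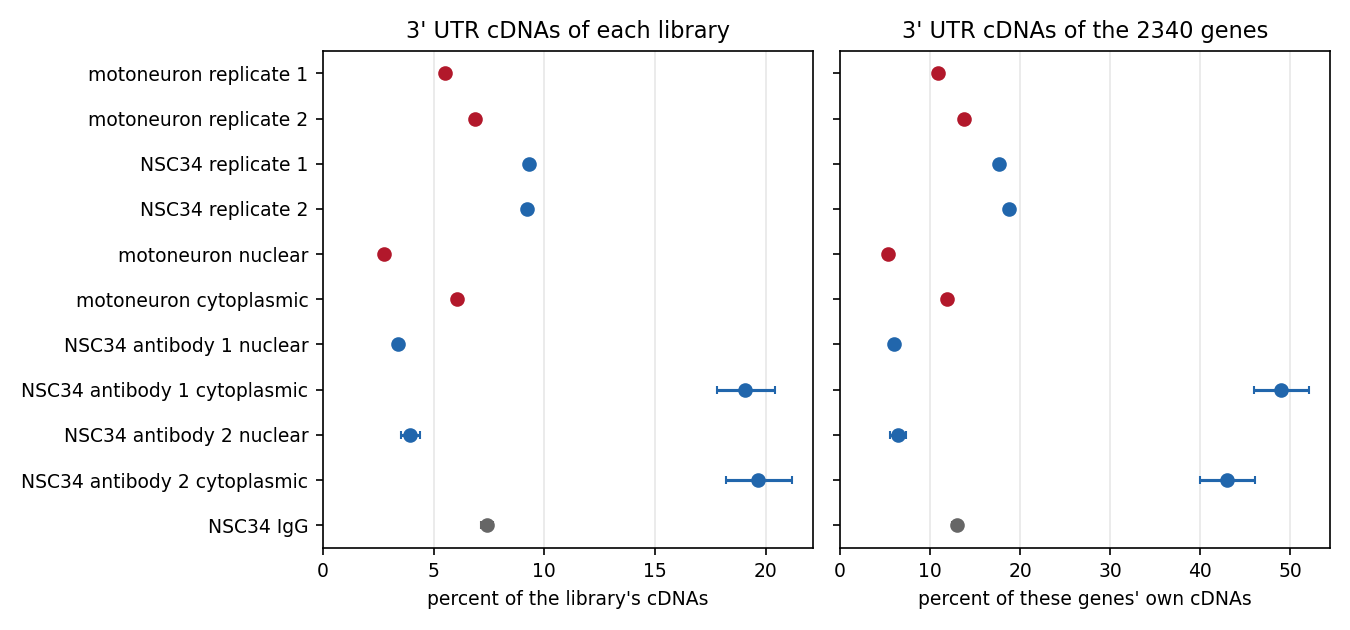
The left panel gives 3′ UTR cDNAs of protein-coding genes as a percentage of all cDNAs of each of the 11 libraries, and the right panel gives the 3′ UTR cDNAs of the 2340 genes as a percentage of these genes' own cDNAs; bars are 95% exact binomial intervals (counting error only). The 3 cytoplasmic libraries lie to the right of their nuclear partners, and the NSC34 cytoplasmic libraries reach 48.97% and 43.0% in the right panel.

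Gene by gene, only the motoneuron pair was deep enough to be read. Of 294 genes with at least 10 cDNAs in that pair, 265 had a higher CPM in the cytoplasmic library and 29 in the nuclear library. The cytoplasmic library is the deeper of the 2 and feeds most of the 10 cDNAs, and 61 of the 294 had 0 in the nucleus and so passed through the cytoplasm alone, which makes this count a description of the genes that passed. Dcx had 8 nuclear and 97 cytoplasmic cDNAs, Mtap2 14 and 99, Slc8a1 5 and 75, and Tmod2, which caps actin filaments in neurons, 1 and 58. Marcks, a membrane-bound actin regulator, had 0 and 41. Each had a higher level per library total in the cytoplasm.

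Snhg11 ran the other way. It had 217 nuclear and 179 cytoplasmic cDNAs, or 2377 and 919 CPM, a cytoplasmic to nuclear ratio of 0.387 (95% interval 0.315 to 0.473 from an exact binomial interval, counting error only). All other genes of the set together had a ratio of 2.67. Snhg11 alone made up 11.8% of the set's 3′ UTR cDNAs in the motoneuron nucleus and 1.89% in the cytoplasm. Other UTRs with more nuclear signal rested on few cDNAs: Snrnp70, a protein of the U1 particle, had 10 nuclear and 1 cytoplasmic cDNA, Son, a splicing cofactor of nuclear speckles, 7 and 4, and Homer1, a postsynaptic scaffold, 9 and 6. Snrnp70 and Homer1 were named after their values were seen.

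With edgeR's quasi-likelihood test on the 6 fractionated libraries, blocked by pair, 1 of the 384 genes tested passed a Benjamini-Hochberg adjusted p of 0.05 (0.26% of all tested). Of those 384 genes, 383 belonged to the set. The gene was Snhg11, lower in cytoplasm with a log2 difference of −2.59 (SE 0.33, edgeR adjusted p = 7.04e-12). Its counts came from the motoneuron pair alone, since all 4 NSC34 fractions had 0. For this gene the SE and p therefore hold no spread between replicate pairs. The call was lost with DESeq2 (adjusted p = 0.997), with library totals in place of trimmed-mean (TMM) scaling, without a filter on low counts, without the block and without the NSC34 antibody 2 pair, although the direction stayed. TMM factors in this fit ran from 0.377 to 2.81, and under library totals the median log2 difference over the 384 genes was 1.84 in place of 0.26.

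**Figure D4:**
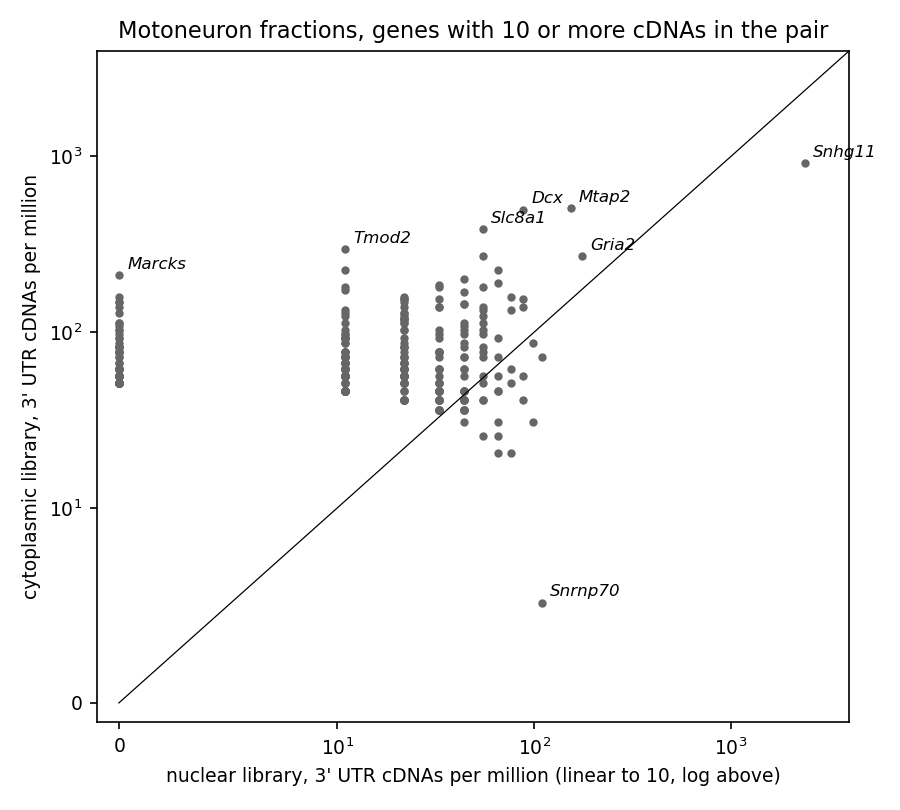
Each point is 1 of the 294 genes with 10 or more 3′ UTR cDNAs in the motoneuron pair, with CPM in the nuclear library on the x axis and in the cytoplasmic library on the y axis (both linear to 10, log above), and the line marks equal levels. Most points, 265, lie above the line, and Snhg11 and Snrnp70 lie below it.

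The same fit compared the motoneuron pair with the NSC34 antibody 1 pair. The NSC34 antibody 2 pair was in the fit but not in this contrast. These libraries were not used by the rule, but the filter of 10 cDNAs over the 6 libraries was met mostly through the deeper motoneuron pair. It called 4 of 384 genes (1.04% of all tested), all 4 in the set and higher in motoneurons: Snhg11 (edgeR adjusted p = 1.49e-87), Mtap2 (0.00285), Dcx (0.0388) and Gria2 (0.0388). Each had 0 cDNAs in all 4 NSC34 fractions, so each passed the filter only through the motoneuron libraries where it is high, and the fitted fold depends on the prior count. The 4 calls therefore give no support of their own to a difference between the cell types. The pooled motoneuron level was set against a floor of 3 counts over the pooled NSC34 antibody 1 fractions. It was 24.0-fold that floor for Snhg11, 6.84-fold for Mtap2, 6.36-fold for Dcx and 4.18-fold for Gria2. The pools were unlike, with 48398 of 51967 cDNAs nuclear in NSC34 and 91302 of 286118 in motoneurons. In the cytoplasm the NSC34 floor was 841 CPM, against 919, 508, 498 and 272 CPM in motoneurons. In the nucleus it was 62.0, against 2377, 153, 87.6 and 175. These folds are therefore no bound within a fraction. The calls were 0 with DESeq2, 0 with library totals and 0 without the NSC34 antibody 2 pair, and the median log2 difference over all 384 genes fell from 1.87 to 0.04 with library totals. No gene was called lower in motoneurons by edgeR or DESeq2, and of the 9 genes at an unadjusted edgeR p under 0.05 none was lower, while with library totals 5 of 8 were.

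The IgG library shared much of the 3′ UTR signal. Its share of cDNAs in 3′ UTRs was 7.39% (95% exact binomial interval 7.13 to 7.67), below the 9.29% and 9.23% of the NSC34 hnRNP R libraries and above both motoneuron libraries at 5.50% and 6.85%. The NSC34 mean was 1.25 times the IgG share. For the 2340 genes alone the shares were 7.47% and 7.40% against 4.96%, a gap that the choice of the genes in the NSC34 libraries widens. A share within a library does not show how much RNA was recovered, and with 1 IgG library there is no spread.

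IgG held 0 cDNAs in 1397 of the 2340 UTRs, 1 or 2 in 761, and 3 or more in 182. The 5 highest were Cbx5, the heterochromatin protein HP1α (20 cDNAs), Scd2 (18), Ncam1, the neural cell adhesion molecule (15), Canx, a chaperone of the endoplasmic reticulum (14), and Arf3, a small GTPase of the Golgi (13). For Cbx5 this was 551 CPM, against 346 and 301 in NSC34 replicates 1 and 2. Ncam1 had 413 CPM in IgG against 107 and 150, Canx 386 against 204 and 190.5, and Arf3 358 against 26.3 and 10.0. The IgG level of these 4 UTRs was therefore above both hnRNP R libraries of the same cells, while that of Scd2 (496 against 821 and 962) was below both.

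The genes sided to motoneurons had little IgG signal, with 66 IgG cDNAs over 333 genes, against 790 over the 833 genes sided to NSC34. The IgG library was made from NSC34 cells, so it gives no background for mRNAs that these cells lack. Testing the 4 NSC34 fractions against IgG with edgeR, 0 of 56 genes, all in the set, passed an adjusted p of 0.05 (0% of all tested). At an unadjusted p under 0.05 there were 7, each higher in IgG, and DESeq2 called 0. IgG supplied 313 of the cDNAs in this fit, against 35 to 233 from each NSC34 fraction, so the filter of 10 cDNAs favoured genes high in IgG. The lowest adjusted p was that of Arf3 (edgeR adjusted p = 0.0597), which passed the filter only through its 13 IgG cDNAs, with 0 in the 4 NSC34 hnRNP R fractions. These libraries are too shallow for the missing calls to be read as a missing difference. The contrast also set the mean of nuclear and cytoplasmic hnRNP R libraries against IgG, whose title names no fraction. The fractions differed in their 3′ UTR share (3.37% and 19.1% with antibody 1), so IgG was not matched to either.

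The lists of this section were not independent of earlier results on these data, and membership follows from the rule, so counts are given as a description beside the 10.4% of all protein-coding genes that met it. Among protein-coding genes with any 3′ UTR cDNA in the 4 libraries the share was 30.2%. The lists were not matched for RNA level or UTR length. Of 20 microtubule-associated and growth cone genes, 14 met the rule, with 1573 cDNAs in all. Besides Mtap2, Dcx and Dpysl3 these included Mapt, the axonal tau protein (39 and 63 cDNAs in motoneurons, 8 and 0 in NSC34), Basp1, a growth cone membrane protein (29 and 32, then 6 and 3), and Stmn2, a tubulin-binding protein of growing axons (35 and 34, then 0 and 0). In the motoneuron fractions the group had 416 CPM in the nucleus and 2105 in the cytoplasm.

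Actin genes were more modest. Of 22 genes of actin and actin dynamics 12 met the rule with 421 cDNAs, and Marcks led with 31 and 42 cDNAs in motoneurons and 52 and 4 in NSC34. Actb itself had 1 and 2 cDNAs in motoneurons and 6 and 2 in NSC34, in a 3′ UTR that the annotation used here gives as 55 bases. That is shorter than the 3′ UTR known for the β-actin mRNA, so contacts elsewhere in it would not be in these counts. Of 11 tubulin genes 2 met the rule, Tuba1a (16 and 20, then 11 and 6) and Tubb5 (4 and 4, then 15 and 6).

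RNA-binding proteins were well represented. Of 34 neuronal and cytoplasmic RNA-binding proteins 23 met the rule (1408 cDNAs), of 31 SR proteins and splicing regulators 20 (883) and of 27 hnRNP proteins 15 (837). Hnrnpab, which takes part in mRNA transport, had 5 and 9 cDNAs in motoneurons and 128 and 30 in NSC34. Syncrip, the close paralog of hnRNP R, had 48 and 43, then 46 and 5. Tardbp, which encodes TDP-43, had 41 and 26, then 51 and 9. Elavl4, a neuronal protein that stabilises mRNAs, had 24 and 32, then 67 and 10. Hnrnpr itself, whose 3′ UTR length could not be derived, had 0 cDNAs there in every one of the 11 libraries, although its gene as a whole had 25, 24, 72 and 14 in the 4 unfractionated ones.

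In the motoneuron fractions the splicing regulators stood nearly level, and in both NSC34 pairs the cytoplasm was higher. In motoneurons their UTRs had 526 CPM in the nucleus and 518 in the cytoplasm. In NSC34 they had 661 and 1961 CPM with antibody 1 and 801 and 1431 CPM with antibody 2, from 4 to 32 cDNAs per library. In the motoneuron pair the neuronal and cytoplasmic RNA-binding proteins had 471 and 1021 and the hnRNP proteins 164 and 385. The 2 tubulin UTRs, with 4 cDNAs in each library, and Ccnt2, with 2 nuclear and 0 cytoplasmic, did not lean to the cytoplasm either. Within the group, Son and Sfrs1, now Srsf1 (7 nuclear and 12 cytoplasmic cDNAs), lay on the nuclear side after scaling to library totals. There is 1 library per fraction, so this is a description of these libraries.

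The signalling and vesicle genes were as follows. Of 7 genes of the 14-3-3 family, adaptors that bind phosphorylated proteins, 6 met the rule (543 cDNAs), led by Ywhaz (25 and 29 in motoneurons, 77 and 18 in NSC34) and Ywhae (37 and 32, then 59 and 16). Of 25 genes of calcium and G protein signalling 19 did (1536 cDNAs), and of 24 synaptic vesicle genes 13 (481 cDNAs), led by Syt4 (13 and 33, then 14 and 7) and Snap25 (20 and 16, then 21 and 6). Neuronal surface genes contributed 13 of 21, motor proteins 8 of 18, intermediate filaments 4 of 10, chaperones 9 of 20, translation factors 7 of 22, ubiquitin and proteasome genes 5 of 20, and secretory granule genes 3 of 10.

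Some groups were hardly present. Of 82 ribosomal protein genes 4 met the rule, of 74 histone genes 5 and of 14 glycolysis genes 0. Of 7 genes of the 7SK particle the cyclin gene Ccnt2 did, with 3 and 6 cDNAs in motoneurons and 10 and 1 in NSC34. Hist1h4a and Hist1h4d had 0 in both motoneuron libraries and belong to a family of near-identical histone H4 copies, which makes their counts uncertain. Of 20 motoneuron disease genes 9 met the rule, among them Tardbp and Ubqln2, a ubiquitin-binding shuttle (14 and 26, then 35 and 12).

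Of the 2340 genes, 2299 could be matched by name to 2291 records of the RNA tables, and 2254 of these records had at least 1 FPKM in the somatodendritic control of the authors' deposited table. Over 2290 genes with a value above 0, the Spearman correlation of motoneuron 3′ UTR cDNAs with control FPKM was 0.33 (Pearson 0.37 on the log2 scale with 0.1 FPKM added). It was 0.53 for cDNAs per kilobase of 3′ UTR, where both measures are per length, and −0.01 for the NSC34 libraries. These are correlations across genes, which are not independent replicates and were chosen in part on the cDNA counts.

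Genes of like RNA level differed in contacts. Snhg11 had 253 and 470 motoneuron cDNAs at 55.5 FPKM in the authors' deposited table, whereas Sv2a had 3 and 8 at 42.4 FPKM and Vamp1 1 and 2 at 49.3 FPKM. In the authors' deposited table Actb stood at 1322 FPKM, with 1 and 2 motoneuron cDNAs. These counts were not scaled to UTR length, and the annotated 3′ UTR of Actb is far shorter than the 5147 bases of Snhg11. The contrast with Actb therefore cannot be read as fewer contacts per base.

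The targeted gene was lower in the hnRNP R knockdown groups: Hnrnpr went from 27.2 to 10.8 FPKM in the somatodendritic compartment (q = 0.310) and from 9.93 to 3.98 FPKM in axons (not tested by the authors), per the authors' deposited tables. Those tables give 1 value per group, so no spread between the replicates behind a value was available. Both knockdowns were set against the same control libraries. A gene carried a test only at a sufficient level: in the somatodendritic compartment 833 of the 2291 matched records had one, and in axons 462.

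Among genes with hnRNP R contacts in their 3′ UTR, 11 changed in the somatodendritic compartment at the authors' q under 0.05, 1 higher and 10 lower, which is 1.32% of 833. Over all 2768 tested records 0.975% were called, 0.361% higher and 0.614% lower. Of the 1935 tested records outside the set, 9 were called higher and 7 lower. The median log2 ratio of knockdown over control was 0.02 in the set and 0.02 over all tested records, and over records at 1 FPKM or more in the control, tested or not, it was 0.03 for the 2254 of the set (1209 higher and 1045 lower) and −0.03 for all 12560 (5989 higher and 6571 lower). The share of the set called was close to the background. At an unadjusted p under 0.05, 36 records of the set were higher and 64 lower, or 4.32% and 7.68%, against 5.74% and 6.54% of all tested. Marker sums of other cells in the authors' deposited table went from 363 to 420 FPKM for the 10 astrocyte and radial glia genes and from 93.1 to 136 FPKM for the 10 oligodendrocyte genes, while the 9 motoneuron markers went from 7.77 to 4.18 FPKM (Chat, Mnx1 and Isl2 at 0). The 10 microglia genes went from 66.2 to 63.6 FPKM (Aif1 at 0) and the 10 fibroblast and mural genes from 122 to 108 FPKM (Postn at 0). Their part in the result was not tested, and in bulk samples fewer cells of a type and less RNA per cell cannot be told apart.

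The fallen genes included 3 of the 13 synaptic vesicle genes of the set, and Apba1. Vamp1, a vesicle SNARE of motor nerve terminals, fell from 49.3 to 28.6 FPKM (log2 ratio −0.79 at q = 0.00865, per the authors' deposited table), with 1 and 2 3′ UTR cDNAs in motoneurons and 11 and 7 in NSC34. Sv2a, a vesicle glycoprotein, fell from 42.4 to 23.3 FPKM (−0.86, q = 0.00865, per the authors' deposited table), with 3 and 8, then 1 and 0 cDNAs. Napb, the brain form of the SNARE-recycling factor SNAP, fell from 49.4 to 30.1 FPKM (−0.71, q = 0.00865, per the authors' deposited table), with 6 and 9, then 2 and 0 cDNAs. Apba1, a presynaptic adaptor also called Mint1, fell from 54.7 to 37.8 FPKM (−0.54, q = 0.0146, per the authors' deposited table), with 10 and 6, then 1 and 1 cDNAs. All 4 UTRs had few contacts, between 12 and 21 in all.

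Other fallen genes were among the more heavily crosslinked. Ywhaz, a 14-3-3 adaptor with 149 cDNAs, fell from 119 to 53.9 FPKM (log2 ratio −1.14, per the authors' deposited table). March6, a ubiquitin ligase of the endoplasmic reticulum with 146 cDNAs, fell from 35.5 to 19.6 FPKM (−0.86, per the authors' deposited table). Dpysl2, the collapsin response mediator CRMP2 with 127 cDNAs, fell from 203 to 143 FPKM (−0.51, per the authors' deposited table). Gmfb, glia maturation factor β with 105 cDNAs, fell from 24.3 to 10.8 FPKM (−1.17, q = 0.0301, per the authors' deposited table), and Camta1, a transcription activator with 98, from 66.3 to 36.7 FPKM (−0.85, per the authors' deposited table).

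The strongest fall was that of Nrep, a small neuronal protein linked to regeneration (D0H4S114 in the iCLIP files), from 94.6 to 33.1 FPKM (log2 ratio −1.51 at q = 0.00865, per the authors' deposited table). Its UTR had 40 and 51 cDNAs in motoneurons, 5 and 0 in NSC34 and 0 in IgG, at 68 positions. Celf4, a neuronal regulator of mRNA stability and translation, was the 1 gene that rose, from 25.3 to 38.6 FPKM (0.61, q = 0.0346, per the authors' deposited table), and its UTR held 12 cDNAs. The cDNA sums of the 11 changed genes ran from 12 to 149, within a set that runs from 10 to 724.

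By number of contacts, the medians stood close together and the calls did not. Over the 212 tested records with 50 or more cDNAs the median log2 ratio was 0.04, over the 282 with 20 to 49 cDNAs it was 0.04, and over the 340 with 10 to 19 cDNAs it was −0.01. Calls numbered 6, 1 and 4 in these classes, or 2.83%, 0.355% and 1.18%. All 6 in the class of 50 or more cDNAs were lower, against 0.614% called lower over all tested records, and the difference between classes was not tested. The most crosslinked genes gave no call: Snhg11 went from 55.5 to 50.8 FPKM (q = 0.876), Scd2 from 185 to 153 FPKM (q = 0.588), Map2 from 252 to 248 FPKM (q = 0.984) and Dcx from 49.6 to 56.9 FPKM (q = 0.718), by the authors' deposited table.

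In axons 0 of the 462 tested records of the set were called, against 0.114% of the 1749 tested in all (0.0572% higher and 0.0572% lower), by the authors' test. At an unadjusted p under 0.05 there were 8 higher and 9 lower, which is 1.73% and 1.95% of 462, while over all tested records it was 6.29% and 2.97%. The median log2 ratio was −0.02 in the set and 0.14 over all tested records. Without the requirement of a test, over records at 1 FPKM or more in the control and with 0.1 FPKM added, the medians were −0.10 for the 2214 of the set and −0.06 for all 11937, so the contrast in axons depended on which records were read. In the authors' deposited table the 10 microglia markers went from 12.8 to 26.7 FPKM in sum (Aif1 at 0 in the control). The 10 oligodendrocyte markers went from 27.9 to 52.8 FPKM (Mag and Mobp at 0). The 9 motoneuron markers went from 7.24 to 1.53 FPKM (Chat, Slc5a7, Lhx3, Mnx1 and Isl2 at 0). The 10 astrocyte and radial glia markers stood at 296 and 297 FPKM, and the 10 fibroblast and mural markers at 803 and 817 (Lum at 0). Their part in the result was not tested. Of the genes that changed on the somatodendritic side, Ywhaz, Dpysl2, Camta1 and Nrep were tested in axons and gave no call. Ywhaz went from 51.9 to 40.1 FPKM (q = 0.817) and Nrep from 25.7 to 15.5 FPKM (q = 0.691), by the authors' deposited table. March6, Gmfb, Vamp1, Sv2a, Napb, Apba1 and Celf4 carried no test in axons, so the missing calls say nothing about them.

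**Figure D5:**
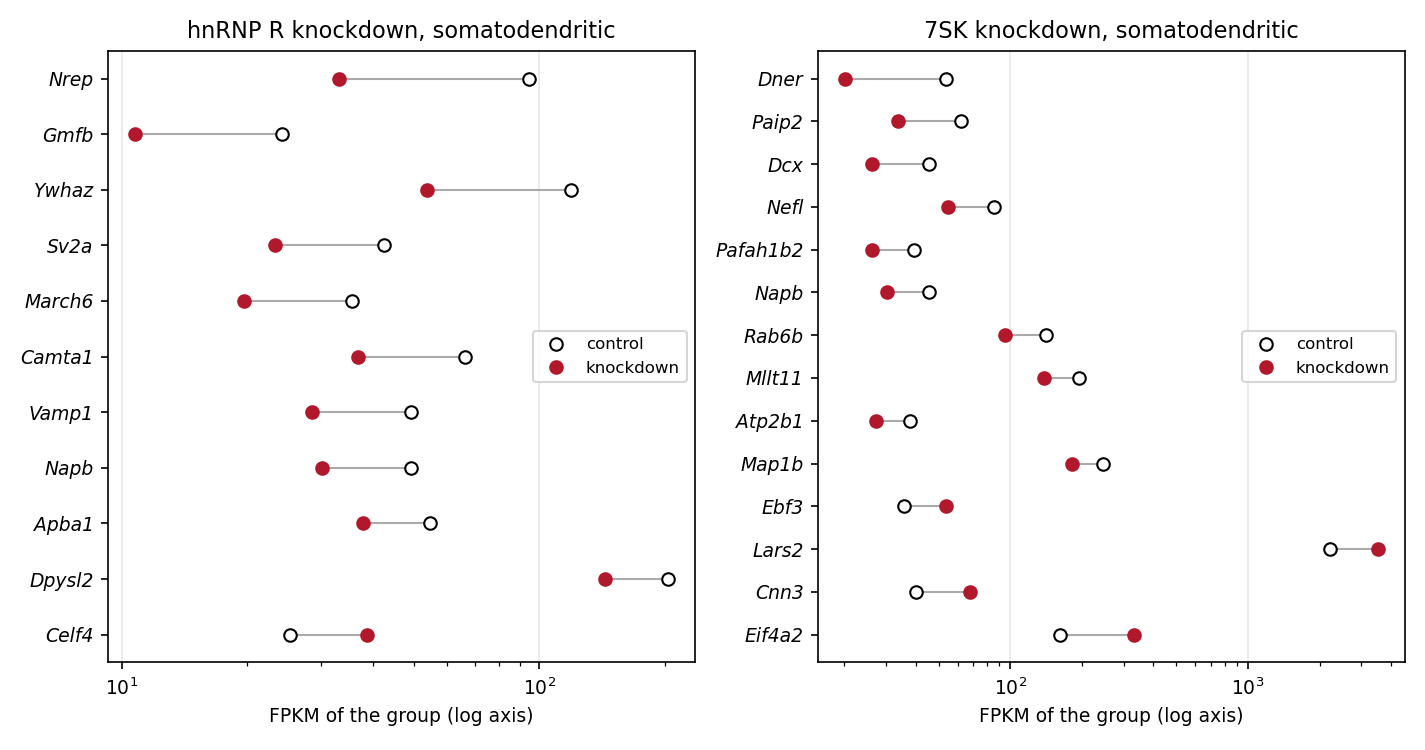
Genes of the set called at the authors' q under 0.05 in the somatodendritic compartment (rows, 1 gene of the right panel not shown), with the FPKM of the control group (open) and of the knockdown group (filled) on a log x axis and 1 value per group without replicate spread. On the left 10 of 11 genes lie lower with hnRNP R knockdown, and on the right 10 of the 14 shown lie lower with 7SK knockdown.

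In the somatodendritic compartment 7SK fell from 9104 to 6370 FPKM (q = 0.00407), but in axons the group labelled 7SK knockdown held more of it than its control, 3508 against 2708 FPKM (q = 0.594), by the authors' deposited tables. On the somatodendritic side, 15 of the 595 tested records of the set were called, 4 higher and 11 lower, which is 2.52%. Over all 1954 tested records 2.51% were called, 1.43% higher and 1.07% lower. At an unadjusted p under 0.05, 32 of the set were higher and 65 lower, or 5.38% and 10.9%, against 8.29% and 7.01% of all tested. Of 1359 tested records outside the set, 24 were called higher and 10 lower. The median log2 ratio was −0.03 in the set, 0.06 over all tested records and 0.12 outside the set. Over records at 1 FPKM or more in the control, tested or not, the medians were 0.01 in the set and 0.02 in all, so this gap too was seen among tested records only.

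Of the genes that fell, Dner fell from 53.8 to 20.1 FPKM (log2 ratio −1.42 at q = 0.00407, per the authors' deposited table), and Dcx from 45.6 to 26.2 FPKM (−0.80, q = 0.00888, per the authors' deposited table). Both UTRs were crosslinked in motoneurons and had 0 cDNAs in NSC34 and in IgG. Nefl fell from 85.6 to 54.9 FPKM (−0.64, q = 0.0132, per the authors' deposited table), with 7 and 26 cDNAs in motoneurons and 38 and 3 in NSC34. Map1b, a microtubule-associated protein of growing axons (Mtap1b in the iCLIP files), fell from 246 to 183 FPKM (−0.43, q = 0.00407, per the authors' deposited table), with 18 and 29, then 64 and 12 cDNAs.

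Of the vesicle genes, Rab6b, a neuronal GTPase of Golgi transport, fell from 141 to 95.4 FPKM (−0.57, q = 0.00407, per the authors' deposited table), with 62 cDNAs. Napb fell from 45.4 to 30.2 FPKM (−0.59, q = 0.0112, per the authors' deposited table). Napb was called lower in both somatodendritic tables, which use the same control libraries.

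The remaining falls were Paip2, an inhibitor of poly(A)-binding protein, from 62.0 to 33.6 FPKM (−0.88), Pafah1b2, a subunit that binds the lissencephaly protein Lis1, from 39.5 to 26.2 FPKM (−0.59), Mllt11, a small neuronal protein, from 194 to 139 FPKM (−0.49), and Atp2b1, a plasma membrane calcium pump, from 37.8 to 27.2 FPKM (−0.48), with q between 0.00724 and 0.0498 in the authors' deposited table. Those that rose were Eif4a2, an RNA helicase of translation initiation, from 162 to 332 FPKM (1.03, q = 0.0434), Cnn3, an actin-binding calponin, from 40.3 to 67.9 FPKM (0.75, q = 0.0154), Lars2, the mitochondrial leucyl-tRNA synthetase, from 2207 to 3525 FPKM (0.68, q = 0.00407), and Ebf3, a transcription factor of neuronal differentiation, from 35.7 to 53.8 FPKM (0.59, q = 0.00407), by the authors' deposited table. Of these 4, Ebf3 had 112 cDNAs in its UTR and the other 3 between 10 and 21. The level of Lars2 was above that of Actb in the same control (1216 FPKM). Whether all of it came from the Lars2 mRNA was not tested, so its rise is uncertain.

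By class of contacts the medians were −0.10 for the 166 tested records with 50 or more cDNAs, 0.02 for the 187 with 20 to 49 and −0.04 for the 242 with 10 to 19. Calls numbered 7, 3 and 5, or 4.22%, 1.60% and 2.07%, beside 2.51% of all tested records. The difference between classes was not tested. Marker genes of other cells moved in this table as well. In the authors' deposited table the summed FPKM of 10 fibroblast and mural markers went from 113 to 176 (Postn at 0), of 10 microglia markers from 60.9 to 92.9 (Aif1 at 0), of 10 astrocyte and radial glia markers from 334 to 353 and of 8 markers of other neurons from 140 to 113 (Slc17a7 and Th at 0). The 10 oligodendrocyte markers went from 85.7 to 111 and the 9 motoneuron markers from 7.16 to 1.84. Their part in the result was not tested.

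In axons 0 of 266 tested records of the set were called by the authors' test, against 3.07% of the 1009 tested in all (2.28% higher and 0.793% lower), in the group labelled 7SK knockdown. At an unadjusted p under 0.05, 14 were higher and 12 lower, or 5.26% and 4.51% of 266, while over all tested records it was 13.6% and 4.56%. The median log2 ratio was 0.01 in the set and 0.23 over all tested records. Over records at 1 FPKM or more in the control, tested or not, it was −0.05 for the 2222 of the set and −0.08 for all 12007, so that the order of the medians turned round. The summed FPKM of the 10 microglia markers went from 13.1 to 172 in this table (Aif1 at 0 in the control), and 0 of these markers are in the set. Of the other lists, the 10 fibroblast and mural markers went from 827 to 450 FPKM (Lum at 0 in the control), the 10 astrocyte and radial glia markers from 303 to 249 FPKM and the 9 motoneuron markers from 7.41 to 0.481 FPKM. The remaining lists rose. The 10 oligodendrocyte markers went from 28.6 to 38.1 FPKM (Mag and Mobp at 0) and the 8 of other neurons from 37.0 to 42.2 FPKM (Pvalb, Slc17a7 and Th at 0). The 8 endothelial markers went from 3.08 to 3.32 FPKM (Pecam1, Cldn5, Emcn and Vwf at 0). Their part in the difference between the set and the other records was not tested.

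By gene group the calls were few. Of 13 synaptic vesicle genes with 3′ UTR contacts, all were tested in both somatodendritic tables. With hnRNP R knockdown 3 fell (Vamp1, Sv2a and Napb) and 0 rose, with a median log2 ratio of −0.23, and with 7SK knockdown 3 fell (Rab6b and Napb among them) and 0 rose, with a median of −0.16, in the authors' deposited tables. Over all tested records 0.614% and 1.07% were called lower. The group itself was not tested, and the lists were chosen with earlier results known. Of 14 microtubule-associated and growth cone genes, 1 fell with hnRNP R knockdown (Dpysl2), and with 7SK knockdown 2 fell (Dcx and Map1b) and 1 rose (Cnn3). Of the 15 hnRNP genes, 12 and 10 were tested and 0 were called, and of the 20 splicing regulators 15 and 13 were tested and 0 were called. The 12 actin genes and 2 tubulin genes gave no call in any of the 4 tables.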

How the data were processed

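The iCLIP files hold a count of cDNAs per gene part and library, deposited by the authors on build mm9 with Ensembl release 59, per the file headers. A further 1265 per-sample columns were not used. The RNA tables hold FPKM, log2 ratios (knockdown over control), p-values and q-values per gene, computed by the authors as 1 value per group; FastQC 0.10.1 and Cufflinks 2.2.1 are named in the submitters' processing notes, with GRCm38 and mm9 as builds of unstated role. Aligners and read collapsing were not given in the sources used here. No genome was used, so no sequences are shown.

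The genes, gene lists (21 groups and 7 marker lists) and tests were chosen with earlier results of these data known. The named genes are the 25 with most cDNAs, those called in a knockdown table, those called or lowest in p in a fit, the 5 highest in IgG, examples at the threshold, list members and the 10 most one-sided UTRs per cell type with at least 50 cDNAs. 3′ UTR lengths are counts divided by the density values (cDNAs per base) that the authors deposited, per the file headers. The tests see only the spread between these libraries, and that spread may be technical. Counts were tested with edgeR 4.0.16 (quasi-likelihood, TMM, at least 10 cDNAs per fit, Benjamini-Hochberg at 0.05) in R 4.3.3, with DESeq2 1.42.0 as an alternative. On simulated counts, run first, the nuclear against cytoplasmic fit recovered 16.7% of genes changed by a log2 of 2 and 40.4% at 3. The fits between cell types and against IgG recovered 0% of such genes. In its fit, the spread of the single IgG library was taken to equal that of the NSC34 fractions. Fractions were paired by cell type and antibody, from titles and headers. RNA records were joined by name (2173 exact, 126 by synonym, 34 unmatched, 7 with several records); 54 genes fell in records that merge several genes. No test could be run anew on the RNA values. The smallest counts limit precision most in the 2 NSC34 cytoplasmic libraries. Results of 2 genes are not reported here, although counts over the set include them.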

Additional observations from a re-analysis of the deposited data

How the results depend on the processing

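The number of genes by the rule, 2340, was 3766 at 5 or more cDNAs, 1206 at 20 or more and 386 at 50 or more. Leaving out 1 of the 4 libraries gave between 1310 (without NSC34 replicate 1) and 2163. As a share of the cDNAs of protein-coding genes, 3′ UTR cDNAs were 5.75% and 7.16% in motoneurons, 10.05% and 10.7% in NSC34, 2.89% and 6.34% in the motoneuron nucleus and cytoplasm, 32.2% and 25.8% in the NSC34 cytoplasm (antibodies 1 and 2) and 7.75% in IgG. The cytoplasmic libraries stayed above their nuclear partners under this choice and, as an alternative chosen after seeing the data, without Snhg11 (2.67 times in motoneurons).

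Pairing of the fractions, by a replicate block for each pair, gave 1 gene called between nucleus and cytoplasm, Snhg11. With no replicate block 0 were called, although its log2 difference was as large (−2.69 against −2.59). With the block kept, the count was also 0 with DESeq2, with library totals and without a filter, and between 0 and 1 when 1 pair was left out (0 without the NSC34 antibody 2 pair). Between the motoneuron and the NSC34 antibody 1 fractions, 4 calls became 0 with DESeq2, 0 with library totals, 1 without a filter and 0 without the NSC34 antibody 2 pair. In these fits the cause was not tested. The IgG comparison gave 0 calls in every setting run. No paired analysis was possible because the authors deposited 1 value per group, for the RNA tables.

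For the hnRNP R knockdown the called genes of the set were 17 in axons at an unadjusted p under 0.05, and in the somatodendritic compartment 21 at q under 0.1, 100 at an unadjusted p under 0.05 and 7 among genes with 20 or more cDNAs. For the 7SK knockdown they were 5 and 26 in axons, and 35 and 97 in the somatodendritic compartment, at q under 0.1 and at an unadjusted p under 0.05. The tested records of the set numbered 462 and 833 for hnRNP R and 266 and 595 for 7SK, axons first. Those with 20 or more cDNAs numbered 494. At an unadjusted p, the shares over all tested records are those given above by direction. At q under 0.1 no such share was at hand, so these counts have no background beside them. Medians of the log2 ratio over genes at 1 FPKM or more, tested or not, were −0.0998 and −0.0899 (0.1 and 1 FPKM added) in hnRNP R axons, 0.0334 and 0.0326 in the somatodendritic table, and changed sign to −0.0461 and −0.0383 in 7SK axons and to 0.00522 and 0.00499 in the 7SK somatodendritic table. With 20 or more cDNAs the hnRNP R medians were −0.0727 in axons and 0.0382 in the somatodendritic table. The Spearman correlation with RNA level was −0.00613 for NSC34 and 0.205 for all 4 libraries. The cause of these shifts was not tested. Depth limits the NSC34 fractions and IgG most.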

Other observations

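Antisense cDNAs outnumbered sense cDNAs over 4 of the 2340 3′ UTRs, all named here after their values were seen. Over the UTR of Ube3a, an imprinted ubiquitin ligase gene that is known to have an antisense transcript in neurons, 28 and 43 antisense cDNAs were counted in motoneuron replicates 1 and 2 and 0 in both NSC34 libraries, while sense cDNAs numbered 9 and 16 in motoneurons and 24 and 7 in NSC34. The motoneuron fractions held 19 antisense cDNAs in the nucleus and 21 in the cytoplasm, and IgG held 0. Over 9330182L06Rik there were 26 and 48 antisense cDNAs in motoneurons, 0 in both NSC34 libraries, 0 in the motoneuron nucleus and 34 in the motoneuron cytoplasm. Over Lmbrd1 the antisense cDNAs came from NSC34, 26 and 3, with 0 in both motoneuron libraries. C2cd2 had 12 antisense and 11 sense cDNAs over the 4 libraries.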
